A study of Mus musculus with 6 samples.

Results

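Doublecortin (Dcx), neuronal regeneration related protein (Nrep), Rab6b and 7 further genes best known from growing neurons were followed in MuSCs (the muscle stem cells that lie along skeletal myofibres), sorted fresh from control and Taf4asKO mice. The 10 genes were chosen by symbol, with the normalized counts of this same comparison in view, and all 10 had a row among the 22081 genes of the table. Their differences between the groups are therefore given as a description, with no p-value. Mean Dcx was 19.1-fold higher in Taf4asKO MuSCs, while Nrep was 4.81-fold and Rab6b 6.15-fold lower. Map1b and Map2, structural microtubule-associated genes with at least 1627 normalized counts in every library, differed by less than the spread between replicates. Gap43 and Stmn2 were too low to judge, and Tubb3 was low.

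RNA-seq was done on 3 control and 3 Taf4asKO samples of C57BL/6 mice. In Taf4asKO mice, exons 11 and 12 of floxed Taf4a (Taf4, a subunit of the general transcription factor TFIID) are removed by a tamoxifen-inducible Cre recombinase expressed under Pax7, so that the deletion is aimed at Pax7-expressing cells. The controls were littermates that carried the floxed alleles too, with or without the recombinase. Which of these genotypes each control library had is not given in the sources used here, and tamoxifen is listed for the Taf4asKO mice, so effects of tamoxifen or of the recombinase and of the lost gene cannot be told apart. Cells positive for SCA1, CD45 or CD31 had been depleted before MuSCs were sorted as positive for Integrin-a7 or for the green reporter of Pax7-zsgreen mice, and the sorted cells were not pure by the study's own account. No source used here says whether a library came from 1 animal or several, and p-values measure the spread between these samples. The satellite cell gene Pax7 had 10363 to 13007 normalized counts in all 6 libraries. Taf4, counted over all of its exons, came to 613, 534 and 478 normalized counts in the controls, and libraries labelled Taf4asKO had 631, 565 and 574 (log2 fold change 0.13, SE 0.12, limma adjusted p 0.524), so the total did not separate the labels. Exons 11 and 12 are not counted apart in the table, and a total over all exons does not check their deletion. The study itself reports the deletion by genomic PCR. It also reports that Taf4a transcript, by RT-qPCR, and TAF4A protein, by western blot, were almost absent from Taf4asKO MuSCs.

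Microtubules are hollow polymers of alpha- and beta-tubulin that grow and shrink at their ends. Doublecortin and the microtubule-associated proteins (MAPs) bind the polymer and stabilize it, stathmins hold free tubulin and favour shrinkage, and Rab6 GTPases direct Golgi-derived vesicles that motor proteins move along these tracks. In young neurons such proteins serve migration and axon growth, and several are also made outside the nervous system.

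Values are normalized counts, that is, reads of a gene divided by a factor for the depth of the library. The libraries held between 12338676 and 14551732 normalized counts each. A gene was tested where its mean over the 6 libraries was at least 5, and it passed the threshold with a limma adjusted p under 0.05 and a change of at least 1.3-fold. Among 18562 genes tested, 12.6% passed, 5.93% with higher and 6.71% with lower values in Taf4asKO. Of the 10 neuronal genes 8 were tested, and 3 passed, Dcx higher and Nrep and Rab6b lower. For 4 of the 8, these 3 and Stmn1, the values of the groups did not overlap, beside 33% of all genes tested. The median log2 fold change was 0.05 over the 8 and 0.004 over all genes tested. Nothing is read from these counts, since the genes were picked from this contrast.

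**Figure D1:**
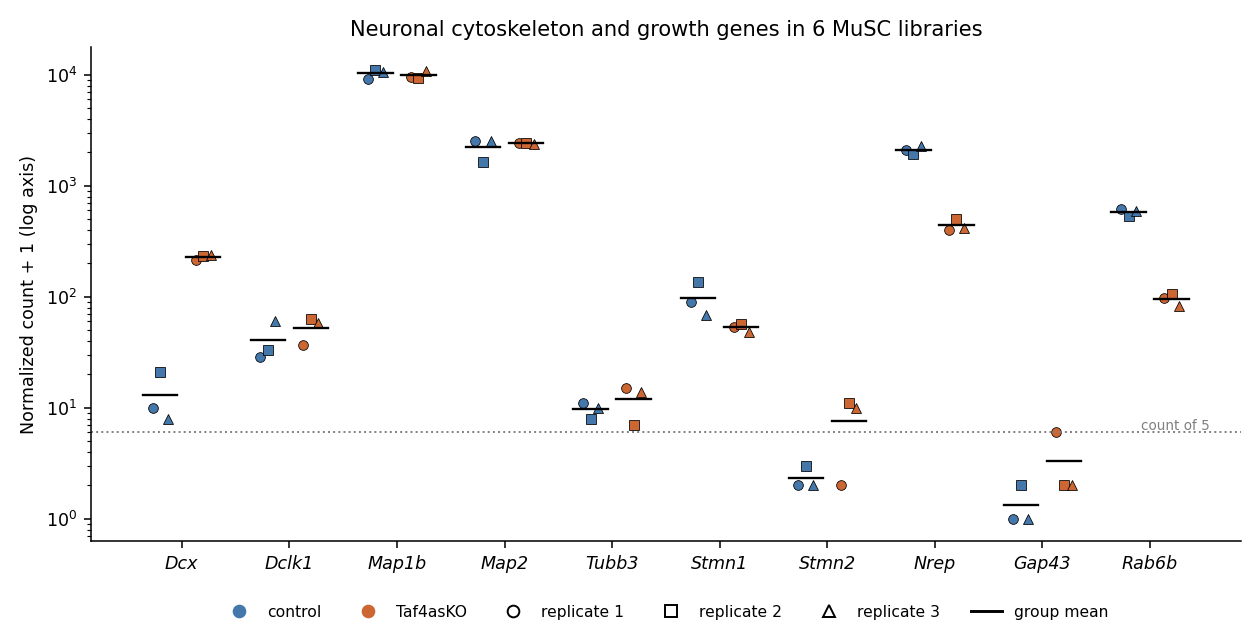
Normalized counts (log axis, value plus 1) of the 10 genes in each of the 3 control (blue) and 3 Taf4asKO (orange) libraries, with group means as bars and a dotted line at a count of 5. Dcx lies at 7 to 20 in control and at 216 to 238 in Taf4asKO, Nrep and Rab6b are lower in every Taf4asKO library, and Stmn2 and Gap43 stay at 10 or fewer throughout.

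Dcx (ENSMUSG00000031285, mm10 chromosome X, 143855842 to 143933311, minus strand) encodes doublecortin, a microtubule stabilizer of migrating neuroblasts. It had 9, 20 and 7 normalized counts in control replicates 1 to 3. In Taf4asKO it had 216, 234 and 238. All 3 Taf4asKO libraries stood far above all 3 controls and lay close to each other. Group means came to 12 ± 7 and 229.3 ± 11.7 (SD, n = 3). The log2 fold change, on the log2(value + 1) scale, was 4.27 (SE 0.34), the highest of all 18562 genes tested. Control Dcx rests on an estimated 8, 18 and 7 reads, whose sum of 33 has an exact Poisson 95% interval of 22.7 to 46.3, against 765 reads (711.7 to 821.2) in Taf4asKO. Such intervals cover counting error only. Over the 11 alternatives that refitted it, the log2 fold change was 3.86 to 4.69. In GENCODE M21 no other gene overlaps the exons of Dcx, and none of the 12774 different 75-base stretches in its transcripts occurs in a transcript of another gene.

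Sequence next to the Dcx start is shown because TFIID, the complex that contains TAF4, assembles at core promoters, of which the TATA element is a classical part, and the CCAAT box is a classical element further upstream. RefSeq windows (GRCm38.p6, which is mm10) reach from 250 bases before to 50 after an annotated start, and 6 of the 10 genes had 8 such windows. Printed is only the part that lies before the gene, 5′ to 3′ on its own strand, with CCAAT or its reverse complement ATTGG and, on the gene strand only, TATAAA in capitals. Dcx (chrX:143933312-143933469, minus strand) stands beside its relative Dclk1 (chr3:55242114-55242363, plus strand) and beside Map1b (chr13:99516603-99516852, minus strand), whose level differed little between the groups.
Dcx: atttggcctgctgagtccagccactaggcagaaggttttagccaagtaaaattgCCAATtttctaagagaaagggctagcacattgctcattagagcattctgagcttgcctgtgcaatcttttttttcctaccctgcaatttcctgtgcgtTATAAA
Dclk1: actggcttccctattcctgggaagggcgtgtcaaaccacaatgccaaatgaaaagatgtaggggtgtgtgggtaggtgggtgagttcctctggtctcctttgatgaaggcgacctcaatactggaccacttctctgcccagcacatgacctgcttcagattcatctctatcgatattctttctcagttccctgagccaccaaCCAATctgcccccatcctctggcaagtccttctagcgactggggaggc
Map1b: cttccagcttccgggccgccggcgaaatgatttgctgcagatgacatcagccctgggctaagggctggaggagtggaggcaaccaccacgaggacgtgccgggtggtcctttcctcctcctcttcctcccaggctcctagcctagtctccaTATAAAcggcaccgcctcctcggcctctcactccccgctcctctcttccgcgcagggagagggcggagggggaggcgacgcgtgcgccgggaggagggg
The Dcx stretch holds 1 CCAAT and 1 TATAAA, which begin 104 and 6 bases before the gene as the table bounds it. RefSeq places its starts inside those bounds, and the same TATAAA begins 98 bases before the start of the outer window and 193 before that of the other. Dclk1 holds 1 CCAAT, beginning 48 bases before the gene, and Map1b 1 TATAAA, beginning 99 bases before its RefSeq start. In the full windows, CCAAT or ATTGG was present in 4 of the 8 and in 37.4% of all 32851 RefSeq windows. TATAAA was present in 3 of the 8, that of Map1b and the 2 of Dcx, which overlap and hold the same TATAAA, and in 8.32% of all. GGGCGG or CCGCCC, the GC box, was present in 4 of the 8, those of Map2, Tubb3, Rab6b and Map1b, and in 35.7% of all. These are matches of letters and not measured binding sites.

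The closest relatives of doublecortin had other patterns. Dclk1 (ENSMUSG00000027797, chromosome 3, 55242364 to 55539068, plus strand), a kinase that also carries doublecortin domains, showed 28, 32 and 59 normalized counts in the controls, against 36, 62 and 57 in Taf4asKO. The groups overlapped, with a log2 fold change of 0.41 (SE 0.33). Dclk2, of the same family, had 19, 46 and 45 against 42, 45 and 34 normalized counts (log2 fold change 0.23, SE 0.35, limma adjusted p 0.72), and the sign turned to -0.18 without control replicate 1. Dclk3, another kinase of the family, fell from 1304, 1583 and 1211 to 480, 456 and 519 normalized counts (log2 fold change -1.48, SE 0.12, limma adjusted p 0.00012).

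Among the structural MAPs, the members were abundant and differed little. Map1b (ENSMUSG00000052727, chromosome 13, 99421446 to 99516540, minus strand), a MAP of extending axons, reached 9144, 11105 and 10653 normalized counts in the controls, against 9558, 9459 and 10826 in Taf4asKO. The groups overlapped (log2 fold change -0.05, SE 0.11), and the difference was 0.01 without control replicate 2. Map2 (ENSMUSG00000015222, chromosome 1, 66175313 to 66442583, plus strand), a MAP of dendrites, had 2537, 1627 and 2517 in control and 2436, 2423 and 2400 in Taf4asKO. Control replicate 2 was the lowest of the 6, the log2 fold change was 0.15 (SE 0.16), and without that library it was -0.06.

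Their relatives were not uniform. Mapt, which encodes the axonal MAP tau, fell from 986.3 ± 72.1 to 568.3 ± 27.4 normalized counts (SD, n = 3; log2 fold change -0.79, SE 0.1, limma adjusted p 0.00133), with no overlap between the groups. Map1a, the relative of Map1b in mature neurons, had 308, 467 and 483 against 582, 566 and 661 normalized counts. Its log2 fold change of 0.55 (SE 0.17) missed the threshold with a limma adjusted p of 0.0604 and passed once the replicate block was in the fit (limma adjusted p 0.0144). It also passed under total-count scaling (0.55) and without control replicate 2 (0.64) or control replicate 3 (0.66). Map1s (log2 fold change -0.34, SE 0.13, limma adjusted p 0.103) passed without control replicate 3, at -0.44. Map4, the MAP of non-neuronal cells (0.32, SE 0.16, limma adjusted p 0.227), passed without control replicate 2, at 0.54.

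**Figure D2:**
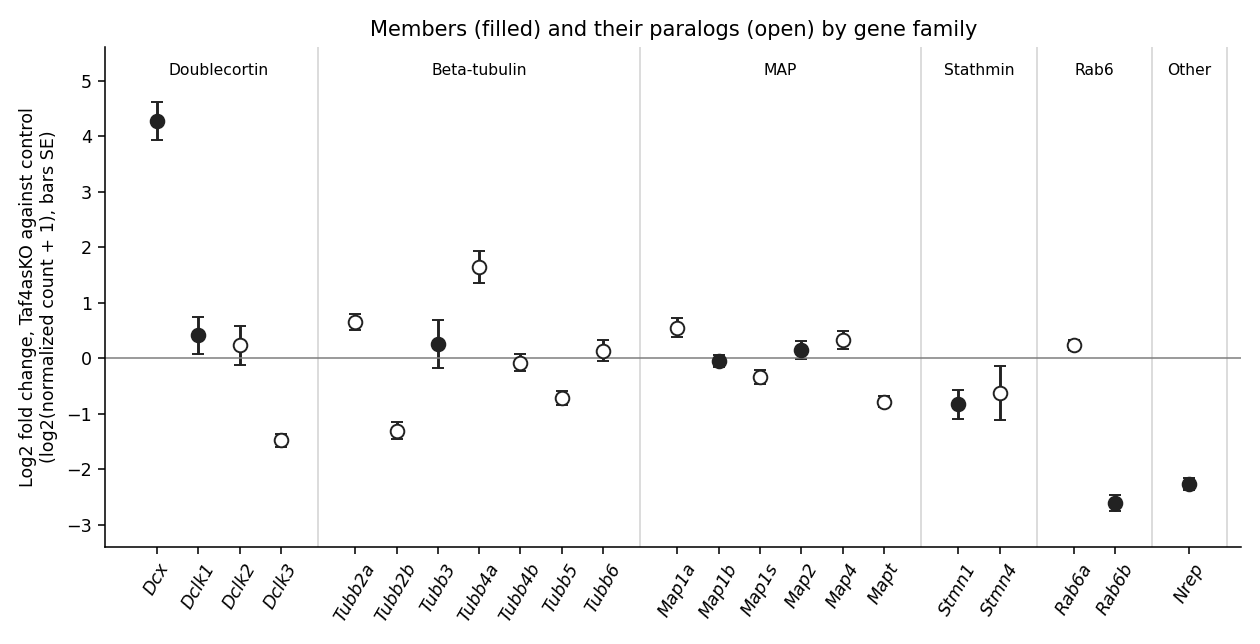
Log2 fold change (Taf4asKO minus control, on log2(value + 1)) with bars of its standard error for the tested genes among the 10 (filled) and their tested relatives (open), grouped by family. Dcx at 4.27 and Rab6b at -2.61 are the extremes, and each stands apart from its relatives, Dclk1 at 0.41 and Rab6a at 0.23.

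Tubulin genes, which encode the building blocks, moved in both directions. Tubb3 (ENSMUSG00000062380, chromosome 8, 123411424 to 123422015, plus strand), the beta-tubulin used to mark neurons, was low. Control libraries held 10, 7 and 9 normalized counts of it, and Taf4asKO libraries 14, 6 and 13. The groups overlapped, and 24 against 38 estimated reads (exact Poisson 95% intervals 15.4 to 35.7 and 26.9 to 52.2) leave its log2 fold change of 0.25 (SE 0.43) poorly determined. It was 0.6 without Taf4asKO replicate 2. Of the other beta-tubulins, Tubb2b, which is prominent in the developing brain, fell from 1012, 784 and 873 to 399, 384 and 295 normalized counts (log2 fold change -1.31, SE 0.15, limma adjusted p 0.000648).

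Tubb5, a widely expressed beta-tubulin, also fell, from 1970, 2561 and 2076 to 1293, 1456 and 1231 normalized counts (log2 fold change -0.72, SE 0.12, limma adjusted p 0.00435). Tubb4a, a beta-tubulin of brain and myelinating cells, rose from 49, 116 and 55 to 230, 221 and 191 (log2 fold change 1.64, SE 0.29, limma adjusted p 0.00584). Tubb2a rose from 615, 500 and 458 to 929, 763 and 762 (log2 fold change 0.65, SE 0.14, limma adjusted p 0.0138), a call lost without Taf4asKO replicate 1, at 0.55. Tubb4b (-0.08, limma adjusted p 0.78) and Tubb6 (0.13, limma adjusted p 0.692) did not pass. Beta-tubulin genes are alike in sequence, and reads that matched several places had been discarded.

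Stmn1 (ENSMUSG00000028832, chromosome 4, 134468320 to 134473843, plus strand) encodes stathmin, a tubulin-binding protein that is abundant in young neurons and in dividing cells. Control libraries held 89, 136 and 67 normalized counts, and Taf4asKO libraries 53, 56 and 47. The groups did not overlap, but control replicate 2 was about 2 times as high as control replicate 3, and the log2 fold change of -0.83 (SE 0.26) did not pass the threshold. It passed with the replicate block, at -0.83, under upper-quartile scaling, at -0.87, and without control replicate 3, at -1.07. Without control replicate 2 it was -0.57. Of its 75-base stretches, 15.39% also occur in the predicted gene Gm11223, so part of its reads may have been discarded or split.

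The order of the control libraries in Stmn1, replicate 2 above 1 above 3, was that of the proliferation gene Mki67, which fell from 1087, 2232 and 727 to 250, 427 and 189 normalized counts (log2 fold change -2.15, SE 0.38, limma adjusted p 0.00602). Of 10 proliferation markers, 6 fell and none rose by limma (9 had an unadjusted p under 0.05), and their summed level was 1925 to 4452 normalized counts in control and 999 to 1503 in Taf4asKO. Pcna went the other way, with 297, 362 and 283 against 457, 411 and 372 (log2 fold change 0.4, limma adjusted p 0.0854), and passed as higher with the replicate block (limma adjusted p 0.045) and without control replicate 2 (0.51). The part of cell cycling in the Stmn1 values was not tested. Stmn2 (ENSMUSG00000027500, chromosome 3, 8509360 to 8561606, plus strand), the stathmin of growth cones, was listed at 1, 2 and 1 normalized counts for control and at 1, 10 and 9 for Taf4asKO. With a mean under 5 it was too low to judge, and 4 against 22 estimated reads (exact Poisson 95% intervals 1.09 to 10.2 and 13.8 to 33.3) came almost all from Taf4asKO replicates 2 and 3. Stmn4 had 10, 5 and 8 against 7, 4 and 3 normalized counts (log2 fold change -0.63, SE 0.48, limma adjusted p 0.425).

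Nrep (ENSMUSG00000042834, chromosome 18, 33437019 to 33464029, minus strand) encodes a small protein found in regenerating neurons and in wound myofibroblasts. It had 2119, 1952 and 2266 normalized counts in control. In Taf4asKO it had 402, 498 and 417. The lowest control library was far above the highest Taf4asKO library. Mean levels were 2112.3 ± 157.1 against 439 ± 51.6 (SD, n = 3), with a log2 fold change of -2.27 (SE 0.11) that stayed between -2.36 and -2.21 in 11 alternatives. It ranked 85 from the bottom among the genes tested. Gap43 (ENSMUSG00000047261, chromosome 16, 42248442 to 42340651, minus strand), the growth cone protein GAP43, was listed at 0, 1 and 0 normalized counts for control and at 5, 1 and 1 for Taf4asKO. It was too low to judge, with 1 against 7 estimated reads and overlapping exact Poisson 95% intervals of 0.0253 to 5.57 and 2.81 to 14.4.

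Rab6b (ENSMUSG00000032549, chromosome 9, 103111787 to 103185276, plus strand) encodes the brain-enriched form of the Golgi GTPase RAB6. It had 620, 538 and 590 normalized counts in control. In Taf4asKO it had 96, 106 and 82. The groups were far apart and each was narrow, 582.7 ± 41.5 and 94.7 ± 12.1 (SD, n = 3). The log2 fold change was -2.61 (SE 0.14), between -2.7 and -2.52 in 11 alternatives, and it ranked 47 from the bottom among the genes tested. Rab6a, the form made in most cells, had 1211, 1220 and 1159 against 1512, 1369 and 1342 normalized counts (log2 fold change 0.23, SE 0.09), which did not pass (limma adjusted p 0.132).

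To set the genes beside each other, normalized counts were divided by the exon length of each gene in kilobases. In control the order ran from Map1b (650 ± 64.8 normalized counts per kilobase; SD, n = 3) over Nrep (540.5 ± 40.2), Map2 (135.4 ± 31.6), Rab6b (115.8 ± 8.25) and Stmn1 (50.6 ± 18.3) to Tubb3 (4.64 ± 0.818), Dclk1 (2.59 ± 1.1), Dcx (0.949 ± 0.553), Stmn2 (0.238 ± 0.103) and Gap43 (0.219 ± 0.379). Among these neighbours, the mean ± SD ranges of Map2 and Rab6b overlapped, as did those of Dclk1 and Dcx and of Stmn2 and Gap43. Control Dcx per kilobase was above only 4.57% of the 22042 genes with a length, whereas Nrep was above 97.6%.

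In Taf4asKO, Map1b (627.8 ± 48.1) and Map2 (147.1 ± 1.11) stood above Nrep (112.3 ± 13.2), followed by Stmn1 (27.1 ± 2.38), Rab6b (18.8 ± 2.4) and Dcx (18.1 ± 0.927). Rab6b and Dcx could not be separated by their spread, nor could Tubb3 and Dclk1 (5.89 ± 2.33 and 3.38 ± 0.902), Dclk1 and Gap43 (1.53 ± 1.52), or Gap43 and Stmn2 (1.19 ± 0.881). Dcx was then above 46.5% of genes, close to Rab6b at 47.3%, and Nrep was above 82.6%. The Taf4asKO level of Dcx was thus in the middle of the range of all genes, and that of Nrep was still in its upper part.

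**Figure D3:**
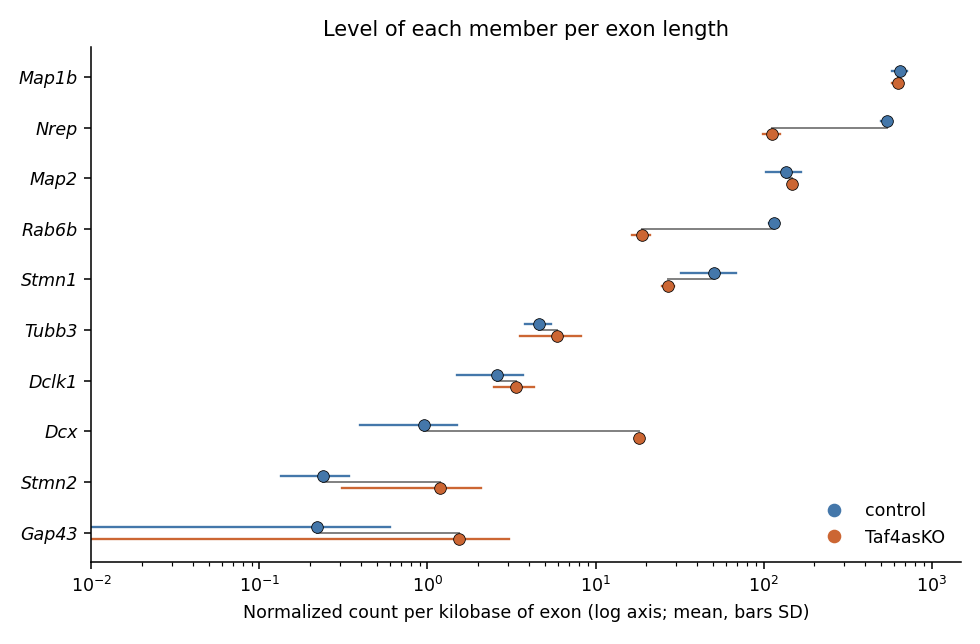
Normalized counts per kilobase of exon (log axis) of the 10 genes in control and Taf4asKO, as group means with SD bars (n = 3), a grey line joining the groups. Dcx moves from 0.949 to 18.1, beside Rab6b at 18.8 in Taf4asKO, and the bars of Gap43, whose SD nearly equals or exceeds its mean, run to the edge of the axis.

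Further genes of the neuronal cytoskeleton were taken from 9 lists of 205 genes, the relatives above included. Of these, 177 were tested and 31 (17.5%) passed, 14 higher and 17 lower, where 12.6% of all genes passed. The count was 13 to 40 when any 1 library was left out, and it fell to 20, 15 and 13 without Taf4asKO replicates 1, 2 and 3. In the list of relatives, 2 of 14 tested rose and 4 fell. None of 8 tested alpha- and gamma-tubulins and none of 25 other MAPs passed by limma, with 1 and 3 of them at an unadjusted p under 0.05. Among the other MAPs, Mapre2 had a limma adjusted p of 0.0444 but missed the fold limit, at a log2 fold change of 0.36. The count for the other MAPs was 1 without any 1 of the 3 control libraries, Map7d2 passing without control replicate 1 (log2 fold change 1.44, limma adjusted p 0.0409). None of 16 tested Rab6 partners and Golgi trafficking genes passed by limma, with 3 at an unadjusted p under 0.05. There 1 passed without control replicate 3, and the replicate block brought 2 past the threshold, Bicd1 and Kif20a.

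Of 37 tested genes for growth cone and axon growth proteins 14 passed, 7 higher and 7 lower. Fscn1, which encodes the actin-bundling protein fascin, fell from 2276, 2372 and 2268 to 769, 856 and 606 normalized counts (log2 fold change -1.65, SE 0.13, limma adjusted p 9.25e-05). Dpysl5, a collapsin response mediator, fell from 148, 126 and 140 to 46, 50 and 28 (log2 fold change -1.75, SE 0.24, limma adjusted p 0.00185). Dbn1, the actin-binding drebrin, fell from 2207, 3982 and 1365 to 1057, 760 and 665 (log2 fold change -1.5, SE 0.32, limma adjusted p 0.0144), a call lost without Taf4asKO replicate 2 (-1.45) or 3 (-1.35). Sox11, a transcription factor of immature neurons, fell from 418, 450 and 402 to 208, 148 and 127 (log2 fold change -1.42, SE 0.18, limma adjusted p 0.00115).

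The 7 that rose had log2 fold changes of 0.38 to 1.41 and were picked for mention after their values were seen. They included the adhesion molecule genes Chl1, with 135, 394 and 385 against 620, 875 and 714 normalized counts (1.41, SE 0.35, limma adjusted p 0.026) and L1cam, with 124, 315 and 324 against 472, 629 and 620 (1.28, SE 0.32, limma adjusted p 0.0259). Both calls were lost without any 1 of the 3 Taf4asKO libraries, at 1.28 to 1.53 for Chl1 and 1.21 to 1.42 for L1cam. Nrn1, the neurite growth factor neuritin, rose from 33, 54 and 74 to 112, 137 and 154 (log2 fold change 1.37, SE 0.28, limma adjusted p 0.0122), lost without Taf4asKO replicate 2 (1.35) or 3 (1.27). The count for the list, 14, was 6 without Taf4asKO replicate 2 and 4 without Taf4asKO replicate 3.

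Of 28 tested genes for tubulin folding and modification, 1 rose and 3 fell. Vash2, a tubulin detyrosinase, fell from 240, 343 and 182 to 105, 86 and 76 normalized counts (log2 fold change -1.47, SE 0.23, limma adjusted p 0.00346). The related Vash1 (-0.77, SE 0.21, limma adjusted p 0.0415) and the polyglutamylase Ttll4 (-0.46, SE 0.12, limma adjusted p 0.0358) fell, and Agbl3, a carboxypeptidase of the deglutamylase family, rose (1.05, SE 0.26, limma adjusted p 0.0268). The call of Vash1 was lost without any 1 library but control replicate 3 (-0.91 to -0.64) and under total-count scaling, that of Ttll4 without any 1 library but control replicate 2 (-0.51 to -0.34) and under total-count scaling, and that of Agbl3 without control replicate 1 or any 1 Taf4asKO library (0.88 to 1.15). The list count of 4 was 1 without any 1 Taf4asKO library, 7 without control replicate 2 and 7 with the replicate block, which added Svbp, the partner protein of the vasohibins (78, 140 and 83 against 59, 51 and 50 normalized counts).

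Among 27 tested kinesins and dynein genes, 2 rose and 1 fell. Kif1a, the motor of synaptic vesicle precursors, rose from 78, 140 and 138 to 203, 244 and 238 normalized counts (log2 fold change 0.98, SE 0.23, limma adjusted p 0.0192), Kif21a rose by 0.62 (SE 0.16, limma adjusted p 0.0331), and Kif16b, an endosome motor, fell by 0.43 (SE 0.1, limma adjusted p 0.0189). Kif1a was lost without Taf4asKO replicate 2 (0.93) or 3 (0.95), and Kif21a (0.46 to 0.68) and Kif16b (-0.43 to -0.41) without control replicate 1 or any 1 Taf4asKO library. The count was 0 without Taf4asKO replicate 2 or 3, and 1 without Taf4asKO replicate 1 or control replicate 1. Of 8 tested neuronal filament and linker genes, the ankyrins Ank3, from 6038, 4751 and 5283 to 2584, 2801 and 2572 (log2 fold change -1.01, SE 0.11, limma adjusted p 0.00051), and Ank2 (-0.62, SE 0.15, limma adjusted p 0.0207) fell. The call of Ank2 was lost without control replicate 1 (-0.53), Taf4asKO replicate 2 (-0.58) or Taf4asKO replicate 3 (-0.56).

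Of 14 tested neuronal transcription and RNA regulators, Hes1, a Notch target that holds back neuronal differentiation, rose from 860, 1055 and 1370 to 1980, 2015 and 2235 normalized counts (log2 fold change 0.95, SE 0.15, limma adjusted p 0.0039). Ebf1 rose by 0.99 (SE 0.27, limma adjusted p 0.0408), a call that every left-out library but control replicate 3 removed (0.7 to 1.17). Rest, the repressor of neuronal genes, had 944, 1109 and 945 against 946, 825 and 920 normalized counts (-0.15, limma adjusted p 0.382).

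**Figure D4:**
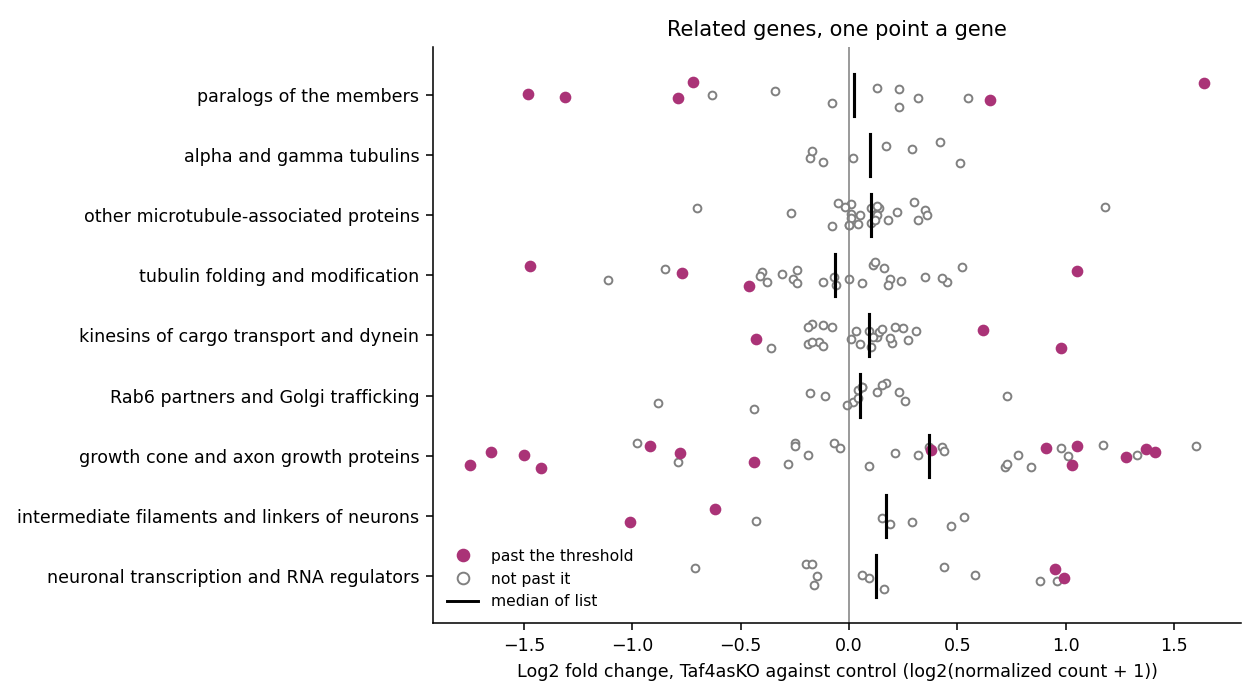
Log2 fold change (Taf4asKO minus control) of every tested gene in the 9 lists of related genes, with the list median as a black bar and the genes past the threshold filled. Alpha- and gamma-tubulins, other MAPs and Rab6 partners hold no gene past the threshold, while growth cone genes spread to both sides with 7 higher and 7 lower.

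Since bulk RNA was measured, more or fewer cells of a type and more or less RNA per cell cannot be told apart. The summed level of 10 neuron markers was 131 to 146 normalized counts in control and 85 to 143 in Taf4asKO. Of 8 neuron markers tested, 1 fell, the secretogranin Scg2, from 16, 19 and 25 to 7, 0 and 4 normalized counts (log2 fold change -2.6, SE 0.7, limma adjusted p 0.0369), a call kept only without Taf4asKO replicate 1 among the left-out libraries. Rbfox3, which encodes the neuronal antigen NeuN, had 1 to 8 normalized counts and Uchl1 0 to 7. The 6 other listed neuron markers, Snap25 and Gad1 among them, were not analysed here.

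Schwann cell and glial markers were also higher in Taf4asKO. Of 9 tested, 6 rose and 1 fell, and the summed level of the 10 in the table was 3068 to 5517 normalized counts in control and 6760 to 8375 in Taf4asKO. Cdh19, a cadherin of Schwann cell precursors, rose from 129, 269 and 257 to 537, 714 and 539 (log2 fold change 1.51, SE 0.25, limma adjusted p 0.00476), a 2.73-fold ratio of means that was the largest among those that rose. Sox10, the defining transcription factor, rose from 185, 534 and 420 to 734, 1016 and 900 (log2 fold change 1.34, SE 0.32, limma adjusted p 0.0227), lost without any 1 Taf4asKO library (1.23 to 1.46). Ngfr fell (-0.92, limma adjusted p 0.00871), and Gfap had 0 to 4 normalized counts.

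The control library with the fewest Schwann cell markers, replicate 1, had 9 normalized counts of Dcx, and the other controls had 20 and 7. Dcx differed 19.1-fold where these markers differed by at most 2.73-fold. The part of Schwann cells in Dcx, Tubb4a, Chl1 and L1cam was not tested. Muscle stem cell markers divided, 3 higher and 3 lower of 10 tested, with a summed level of 45775 to 48347 in control and 49321 to 52731 in Taf4asKO. Myf5, a myogenic factor of these cells, fell by 0.85 on the log2 scale (limma adjusted p 0.00134), Vcam1 rose by 0.74 (limma adjusted p 0.00106), and Pax7 had a log2 fold change of -0.21 (limma adjusted p 0.161).

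Of the remaining markers, those of fibro-adipogenic progenitors summed to 69555 to 99130 normalized counts in control and 57946 to 82052 in Taf4asKO (1 of 8 tested rose and 2 fell). Col3a1, which fell from 46225, 47112 and 47700 to 13082, 17573 and 16995 (limma adjusted p 0.000126), carries much of that sum, while 6 of the 8 had a log2 fold change above 0 and the median over the 8 was 0.77. Markers of pericytes and smooth muscle summed to 25298 to 30074 and 25859 to 30467 (2 of 7 rose). Notch3, with 15838, 13174 and 17451 against 10737, 12673 and 13457, makes up much of that sum, while 5 of the 7 had a log2 fold change above 0 and the median over the 7 was 0.69. Endothelial markers summed to 914 to 1330 and 1453 to 1794, and immune markers to 469 to 581 and 696 to 942. The immune sum covers 4 of 8 listed markers, and the 4 others, Ptprc among them, were not analysed here. In the immune sum Lyz2 alone was higher, with 94, 357 and 320 against 465, 729 and 483, while the 3 others had log2 fold changes below 0 and the median over the 4 was -0.29. None of 6 endothelial and 4 immune markers tested passed by limma, with 4 and 2 at an unadjusted p under 0.05. Myofibre markers spread widely in both groups, 5674 to 13978 and 6708 to 12207, with none of 8 past the threshold by limma and 0 at an unadjusted p under 0.05. The part of these cells in the differences of Dcx, Nrep and Rab6b was not tested.

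**Figure D5:**
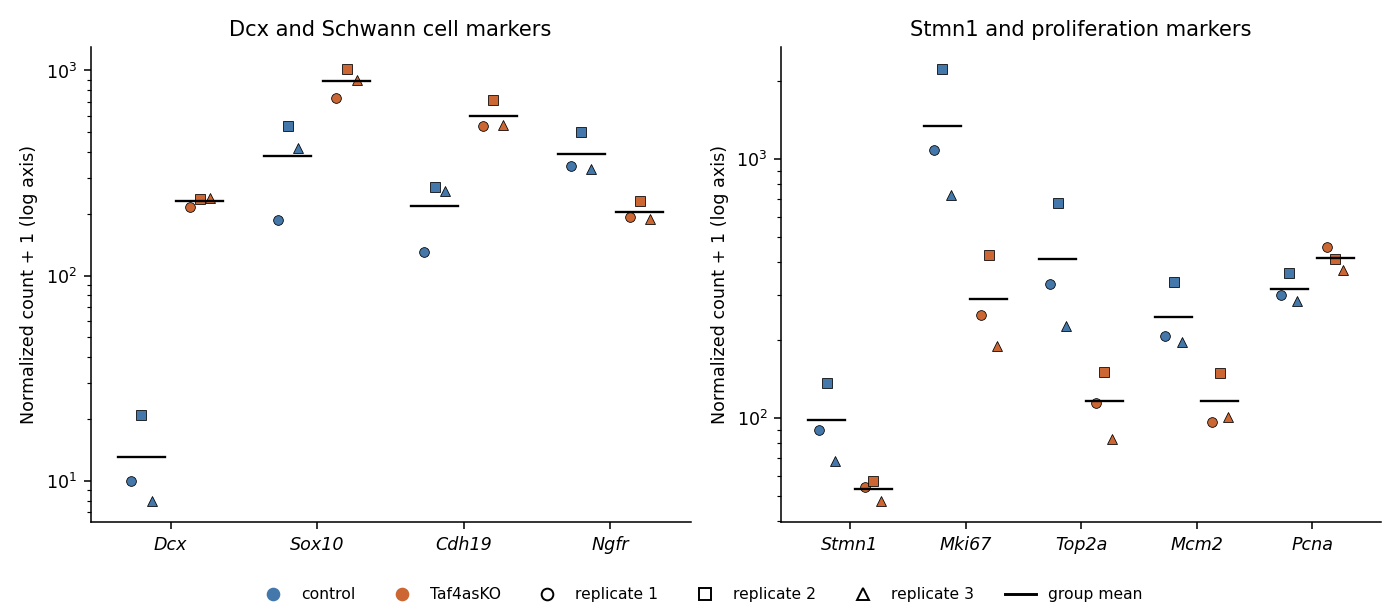
Normalized counts plus 1 (log axis) per library, control in blue and Taf4asKO in orange, with group means as bars, for Dcx beside 3 Schwann cell markers and for Stmn1 beside 4 proliferation markers. Dcx, from 7 to 20 up to 216 to 238, moves further than Sox10 or Cdh19, Ngfr is lower in Taf4asKO, and control replicate 2 is the highest control in Stmn1 (136), Mki67, Top2a, Mcm2 and Pcna.

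The genes whose profile over the 6 libraries was most like that of Dcx or Nrep were sought in 10586 genes whose mean was 50 or more, by the root mean square difference of log2 profiles centred on the control mean. Nearest to Dcx were the chemokine genes Ccl7 (difference 0.81 log2 units) and Ccl2 (0.82), then Sox7 (1.34), Polr2a (1.38) and Mt2 (1.42). Ccl7 rested on 6, 5 and 8 normalized counts in the controls, against 162, 73 and 73 in Taf4asKO. Polr2a, the largest subunit of RNA polymerase II, had 2256, 2917 and 2617 against 15658, 12679 and 12945. None of the 5 was as close to Dcx as the 5 nearest genes were to Nrep. Nothing is read from this, since Dcx had the highest log2 fold change of all genes tested and few control counts.

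Nearest to Nrep were Amer2 (0.13), Slc24a2 (0.15), Zcchc5 (0.19), Adamtsl1 (0.22) and Frmd4b (0.22). Amer2, a membrane protein that binds APC, showed 191, 198 and 207 normalized counts in the controls, against 41, 50 and 33 in Taf4asKO. Adamtsl1 had 1161, 1006 and 1024 against 217, 198 and 265. The likeness is a description over 6 libraries in 2 groups and was sought with the profiles known.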

How the data were processed

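RNA-seq libraries of 3 control and 3 Taf4asKO samples were analysed. Per the labels and the study's methods, reads were trimmed (Trimmomatic 0.39), aligned to mm10 (STAR 2.6.0c), freed of multi-mapping reads and counted over exons (featureCounts 1.6.0); whether counting used strand is not given in the sources used here. The values deposited by the authors were counts divided by DESeq2 1.14.1 size factors and rounded to whole numbers, and were treated as a score rather than as counts.

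Of 22081 genes, 18562 with a mean of at least 5 entered a two-sided limma test (version 3.58.1, R 4.3.3; lmFit and eBayes with trend) on log2(value + 1), which understates changes of low genes. The threshold was a Benjamini-Hochberg adjusted p under 0.05 over all genes tested and a 1.3-fold change. The fit was tested on simulated data. Reads per library were estimated from the steps between the rounded values. A gene with a mean under 5 was called too low to judge, and from 5 to 20 low. Named were the 10 genes, Taf4, all tested relatives, up to 4 passing genes of each list with the largest change, and the 5 profiles nearest to Dcx and Nrep. Other names, the markers among them, were chosen after their values were seen.

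The 10 genes and all lists were chosen with earlier results of these data known, and some listed genes are not reported here. Same-numbered libraries of both groups deviated together (correlations of deviations from the group means 0.235, 0.126 and 0.15, against -0.149 to 0.0141 for other pairs), so the replicate number was tried as a block. Further alternatives were 2 scalings, 2 pseudocounts, other filters on low values, a stricter fold limit and leaving out each library. Exon lengths and overlaps came from GENCODE M21 and promoter windows from RefSeq.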

Additional observations from a re-analysis of the deposited data

How the results depend on the processing

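Of the 10 genes, 3 or 4 were past the threshold in each setting (Dcx, Nrep, Rab6b and, in some, Stmn1), which is a description, since they were chosen on this contrast. With the replicate block, which uses the pairing of same-numbered libraries, 3355 genes passed, 1688 higher and 1667 lower, and 44 genes of the related lists passed. It brought Stmn1 (lower) and Map1a and Pcna (both higher) past the threshold and changed no other call among the tested genes of the 10 and 48 other named genes. Svbp, Bicd1 and Kif20a were among the further list genes it added. At an absolute log2 fold change of at least 1, 850 genes passed, 330 higher and 520 lower, and 15 genes of the related lists.

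Leaving out each library in turn gave 960 to 3121 genes, 341 to 1616 higher and 595 to 1505 lower, and 13 to 40 genes of the related lists. Fewer samples were tested there. Among the 10 genes, signs turned without control replicate 2 for Map1b (0.01) and Map2 (-0.06). Signs also turned for Dclk2 (-0.18 without control replicate 1, up to 0.44 when other libraries were left out), Tubb4b (0.03 without control replicate 1 and 0.01 without Taf4asKO replicate 3, down to -0.23) and Tubb6 (-0.1 without Taf4asKO replicate 1, up to 0.3), and the cause was not tested. Of 669 refitted values for 48 named genes outside the 10, 579 kept side and direction, 77 lost the threshold, 9 gained it and 4 changed sign. Depth limits Gap43 and Stmn2, which have at most 22 estimated reads in a group, and leaves control Dcx with 33.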
